A study of Mus musculus with 114 samples.

Results

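Actin cytoskeleton and focal adhesion genes were followed in adipocytes of male C57BL/6J mice through a time course of diet-induced obesity. The group holds 39 genes of 29132 listed genes, chosen by symbol, and is divided into 4 smooth muscle type genes (Acta2, Tagln, Cnn1 and Myl9) and 35 general genes. From 6 weeks of age the mice received chow (CD) or a diet with 60% of its energy as fat (HFD), for 8, 20 or 34 weeks. Each group had 6 mice apart from the 34 week CD group, which had 8. All groups were of the same sex and strain, and the labels name no other treatment. The paper states that the mice were fasted for 6 hours before harvest. It names alternative control diets without saying which mice received which. Adipocytes were taken as the cells that floated after collagenase digestion of the perigonadal fat pad. PolyA RNA was sequenced in 3 technical replicates per mouse that the authors merged into 1 value per gene and mouse. These values are CPM, the reads of a gene scaled to a fixed total of reads on genes.

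Actin is a globular protein that polymerizes into filaments. Thymosins, profilin and cofilin hold or turn over the pool of monomers, the Arp2/3 complex branches filaments, and tropomyosins, alpha-actinins, filamin and calponins bind along filaments or link them together. Nonmuscle myosin II pulls on the filaments. At focal adhesions talin, vinculin, paxillin, zyxin, parvin and integrin-linked kinase (Ilk) connect the filaments to integrins and so to the extracellular matrix. The smooth muscle type genes encode the actin (Acta2), the transgelin (Tagln), the calponin (Cnn1) and the regulatory light chain (Myl9) of contractile smooth muscle, and Acta2 is also widely used to mark myofibroblasts.

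Many actin and adhesion genes are targets of serum response factor, which binds the CArG box, so the promoters of the members were searched for this motif. RefSeq promoter windows (GRCm38.p6, 250 bases before to 50 bases after a start site) were found for 35 of the 39 members, and 5 of these 35 members (14.3%) held a CArG box, compared with 488 of 27025 genes (1.81%). Tagln, Actb, Parva and Pxn had no window, so their promoters were not searched. The motif reads the same on both strands, so 1 search covers both, and only exact matches were counted. The 5 promoters are printed because the members behind them include 1 smooth muscle type gene and 4 general genes with different values below. Each run gives the 250 bases before the start site, 5′ to 3′ on the strand of the gene, with the CArG box in capitals. The runs lie at chr2:156775214-156775463 (plus strand) for Myl9, chr10:79988350-79988599 (plus strand) for Cnn2, chr10:128493010-128493259 (minus strand) for Myl6, chr11:120348496-120348745 (minus strand) for Actg1 and chr14:20929148-20929397 (plus strand) for Vcl.
Myl9: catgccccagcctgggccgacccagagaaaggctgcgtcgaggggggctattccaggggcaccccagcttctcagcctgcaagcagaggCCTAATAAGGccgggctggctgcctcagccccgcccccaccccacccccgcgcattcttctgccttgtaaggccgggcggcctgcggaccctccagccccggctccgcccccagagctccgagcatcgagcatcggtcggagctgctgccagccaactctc
Cnn2: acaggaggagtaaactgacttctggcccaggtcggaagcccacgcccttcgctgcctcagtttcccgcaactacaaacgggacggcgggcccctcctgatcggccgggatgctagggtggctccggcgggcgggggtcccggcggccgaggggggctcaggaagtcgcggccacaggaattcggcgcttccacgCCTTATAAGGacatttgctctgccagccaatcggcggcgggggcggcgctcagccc
Myl6: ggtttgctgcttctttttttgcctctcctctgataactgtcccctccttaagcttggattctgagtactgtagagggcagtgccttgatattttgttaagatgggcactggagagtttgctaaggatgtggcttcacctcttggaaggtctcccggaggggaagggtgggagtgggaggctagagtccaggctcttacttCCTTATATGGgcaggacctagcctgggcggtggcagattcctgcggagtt
Actg1: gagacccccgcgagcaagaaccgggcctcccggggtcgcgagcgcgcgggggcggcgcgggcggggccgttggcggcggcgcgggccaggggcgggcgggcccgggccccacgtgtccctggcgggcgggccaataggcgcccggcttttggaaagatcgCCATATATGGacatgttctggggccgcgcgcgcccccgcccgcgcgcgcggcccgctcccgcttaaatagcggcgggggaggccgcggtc
Vcl: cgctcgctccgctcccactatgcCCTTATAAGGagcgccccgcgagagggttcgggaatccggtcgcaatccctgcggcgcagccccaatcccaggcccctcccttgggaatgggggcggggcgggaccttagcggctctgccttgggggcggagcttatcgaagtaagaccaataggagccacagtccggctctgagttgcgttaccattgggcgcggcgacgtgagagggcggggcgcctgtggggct
The box began 161 bases before the start site in Myl9, 56 in Cnn2, 50 in Myl6, 90 in Actg1 and 227 in Vcl. The windows of Acta2 and Cnn1 held no exact match, which says only that these letters were not in the windows. The motif is a description of the sequence, and binding was not measured. Their values are described below.

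Per kilobase of exon, Actb (cytoplasmic beta-actin) was the highest member, with a median of 694 CPM per kb over the 38 mice, followed by Tmsb4x (480 CPM per kb), Actg1 (224 CPM per kb) and Cfl1 (198 CPM per kb). Acta2 was in the 22nd place of 39, with a median of 35.5 CPM per kb, whereas Myl9 (3.59), Tagln (3.15) and Cnn1 (0.0433 CPM per kb) were in the places 36, 37 and 39. Tpm2 (0.629 CPM per kb), a tropomyosin, lay between Tagln and Cnn1. Cnn1 and Tpm2 did not pass the filter of a mean log2(CPM + 1) above 2 and were not tested, which left 37 members (3 of the smooth muscle type and 34 general) among 10343 genes tested.

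Adipocyte markers were high in every mouse, with a sum over 12 markers of 18620 to 72980 CPM, and 2, 9 and 10 of the 12 were lower and 1, 1 and 0 higher in HFD mice at 8, 20 and 34 weeks. Markers of other cells were present and moved with diet. The summed level of 13 macrophage markers was 277.5 to 1677 CPM in CD and 1176 to 3873 CPM in HFD mice at 8 weeks, 417 to 3640 and 5486 to 10490 CPM at 20 weeks, and 1269 to 14410 and 6278 to 18720 CPM at 34 weeks. All 13 were higher in HFD mice at 34 weeks, 12 at 20 weeks and 11 at 8 weeks. Of 12 mural markers 7 were tested, and 4, 3 and 4 of them were higher and 0, 1 and 1 lower in HFD mice at 8, 20 and 34 weeks. The sum of the mural markers, which is mostly Mcam, was 716 to 1037 CPM in CD and 836 to 939 CPM in HFD mice at 8 weeks. It was 561 to 843 and 555 to 646 CPM at 20 weeks, and 378 to 734 and 404 to 723 CPM at 34 weeks. The mean log2(CPM + 1) over the 12 mural markers, by contrast, had a median of 2.456 in CD and 3.395 in HFD mice at 8 weeks. These medians were 2.744 and 3.316 at 20 weeks, and 2.501 and 3.027 at 34 weeks. The mural markers Myocd and Lmod1 were at 0 in 28 and 5 of 38 mice. Fibroblast markers were higher in HFD mice in 6, 10 and 5 of 10 tested, and endothelial markers in 10, 6 and 7 of 10 tested, at 8, 20 and 34 weeks. The fibroblast sum was 484 to 808 and 551 to 1786 CPM in CD and HFD mice at 8 weeks, 269 to 824 and 1121 to 2517 CPM at 20 weeks, and 616 to 2953 and 888 to 1525 CPM at 34 weeks. The endothelial sum was 36.8 to 375 and 111 to 551 CPM at 8 weeks, 61.5 to 237 and 205 to 589 CPM at 20 weeks, and 67.6 to 200.4 and 128 to 599.9 CPM at 34 weeks. Mesothelial markers summed to 7.93 to 91.2 CPM, and of 8 skeletal muscle markers only the actin Acta1 was tested, with Myh2, Myh1, Myh4 and Ckm at 0 in 33, 31, 27 and 27 mice. In such bulk libraries fewer cells of a type and less RNA per cell cannot be told apart, and the part of these cells in the results was not tested. Each mouse had between 9275711 and 15480388 reads on genes. At 8 weeks the depth of the diets did not overlap (10562845 to 12611013 in CD and 13201234 to 15480388 in HFD mice). Depth also did not overlap between CD mice at 8 and 20 weeks (13091365 to 14292115 at 20 weeks). The same held for HFD mice at 8 and 34 weeks (10714545 to 12271651 at 34 weeks). Between 20 and 34 weeks depth did not overlap in either diet. It was 9275711 to 12433584 in CD mice at 34 weeks and 13159018 to 14961360 in HFD mice at 20 weeks.

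Most of the members were higher in HFD mice at each time, and their median difference between diets was widest at 20 weeks. At 8 weeks 24 of 37 members (64.9%) were called higher in HFD mice and none lower (limma, adjusted p under 0.05), compared with 29.8% of all genes tested called higher and 44.9% called in either direction. At 20 weeks 33 members (89.2%) were higher and 2 were lower, compared with 38.3% of genes higher and 57% in either direction. At 34 weeks 22 members (59.5%) were higher and 1 was lower, compared with 27.5% and 43.2% of genes. The median diet difference of the members on the log2(CPM + 1) scale was 0.59, 1.14 and 0.67 at the 3 times, and that of all genes tested was 0.11, 0.14 and 0.07. Fold changes on this scale understate the change of low genes.

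Scaling by TMM factors, which allow for the composition of a library, shifted the median diet difference of all genes by -0.10, -0.21 and -0.09 at 8, 20 and 34 weeks. With TMM factors 22, 27 and 21 members were higher at 8, 20 and 34 weeks, and 22.6%, 26.3% and 22.4% of all genes were. The calls lost were those of Ilk and Tln1 at 8 weeks, of Actb, Actg1, Ilk, Myl6, Parva and Pxn at 20 weeks and of Actb at 34 weeks. The share of all called genes that were higher moved from 66.3% to 51.4% at 8 weeks, from 67.1% to 44.7% at 20 weeks and from 63.6% to 51.9% at 34 weeks.

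A set of 15 of the 37 members was called higher at all 3 times, as were 12.2% of all genes. These were Actn1, Arpc1b, Arpc2, Cap1, Capg, Cfl1, Ezr, Flna, Pfn1, Tagln2, Tln1, Tmsb10, Tmsb4x, Tpm1 and Tpm3, and none of them is of the smooth muscle type. A further 9 (Acta2, Cnn2, Cnn3, Ilk, Myl12a, Myl6, Parva, Tpm4 and Vasp) were called at 8 and 20 weeks, 7 (Actb, Actg1, Lasp1, Msn, Myh9, Pxn and Zyx) at 20 and 34 weeks, and Myl9 and Tagln at 20 weeks only. Whether the diet difference changed between times was tested apart and is given below. The groups separated without overlap, every HFD mouse above every CD mouse, for 16 tested members at 8 weeks (15.7% of all genes), 26 at 20 weeks (26.1%) and 0 at 34 weeks (1.47%).

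**Figure D1:**
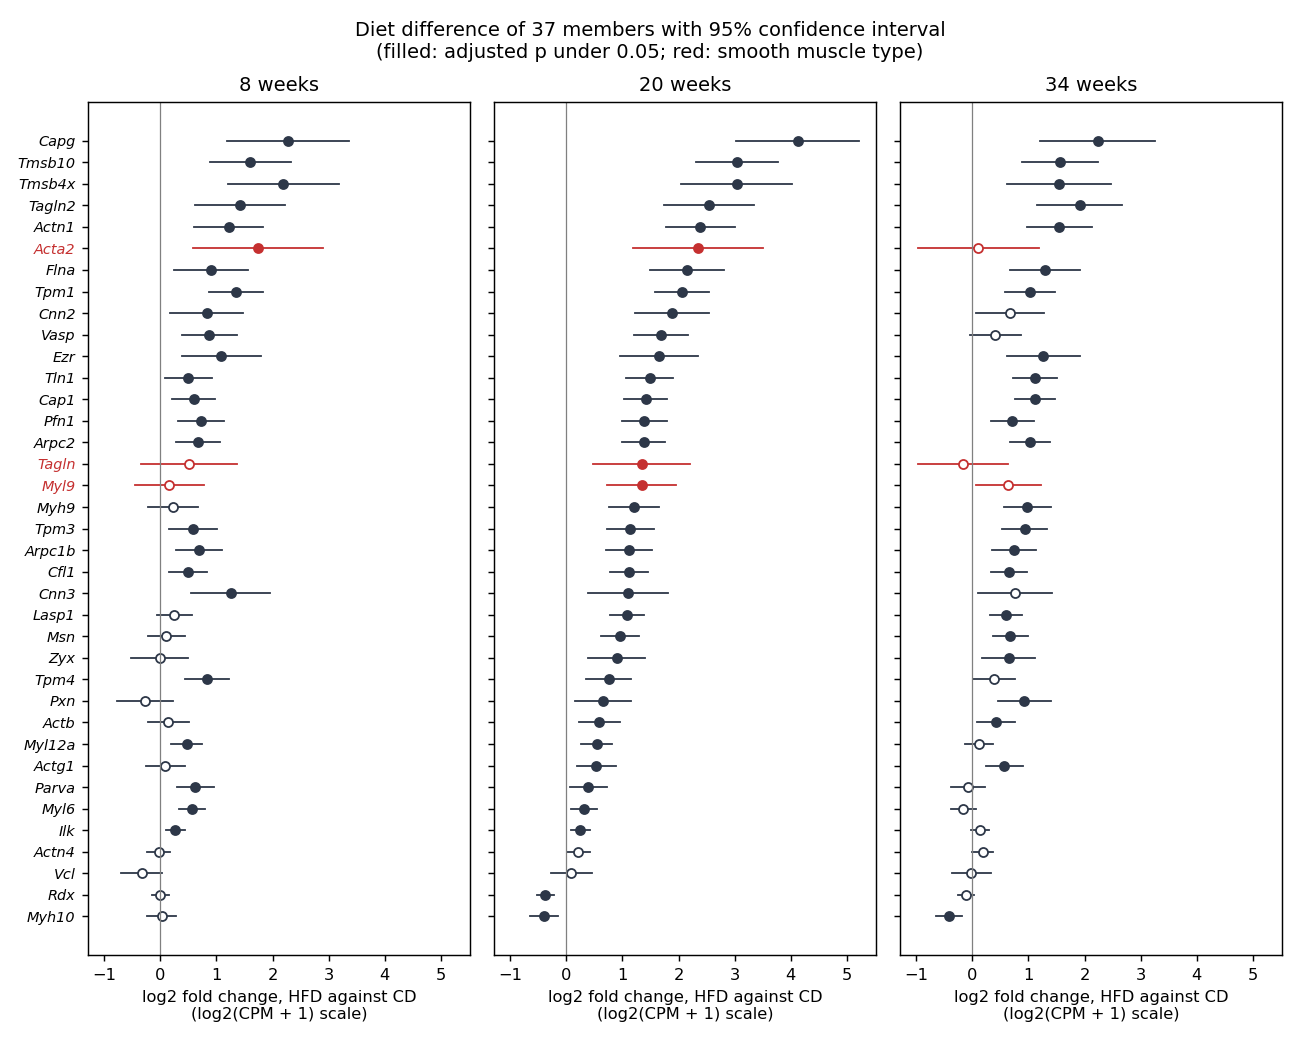
Difference between HFD and CD mice of the 37 members tested, on the log2(CPM + 1) scale, at 8, 20 and 34 weeks; points are estimates, lines are 95% confidence intervals, filled points have an adjusted p under 0.05 and red marks the smooth muscle type. Acta2 lies at 1.74, 2.34 and 0.11 at the 3 times, whereas Capg, the highest member at 20 weeks, lies at 2.28, 4.12 and 2.23.

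Acta2, smooth muscle alpha-actin (chr19:34240336-34255585 on GRCm38), was higher in HFD mice at 8 and 20 weeks. At 8 weeks the lowest, median and highest values, in the order used for each gene below, were 29.6, 50.7 and 177 CPM in the CD mice and 101, 183 and 366 CPM in the HFD mice. At 20 weeks Acta2 had 4.05, 21.9 and 45.8 CPM in the CD mice and 25.7, 120.1 and 158 CPM in the HFD mice. At 34 weeks Acta2 had 10.9, 101 and 216 CPM in the CD mice and 52, 62.2 and 172 CPM in the HFD mice. Thus 4 of 6 HFD mice lay above every CD mouse at 8 weeks, 5 of 6 at 20 weeks and none at 34 weeks, when the range of the CD mice enclosed that of the HFD mice. The diet difference was 1.74 ± 0.57 (SE, adjusted p = 0.0135), 2.34 ± 0.57 (adjusted p = 0.00075) and 0.11 ± 0.53 (adjusted p = 0.88, 95% interval -0.97 to 1.19). The diet difference at 34 weeks was 2.23 lower than at 20 weeks (-2.23, 95% interval -3.82 to -0.65), which missed the threshold (adjusted p = 0.0586). At 20 weeks HFD mouse 4 was low, with 25.7 CPM against 96.9 CPM in the nearest HFD mouse.

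Tagln, transgelin or SM22 (chr9:45929628-45936058), passed the test at 20 weeks. The lowest, median and highest values were 4.91, 6.1 and 28 CPM in the CD mice and 4.62, 13.2 and 21.5 CPM in the HFD mice at 8 weeks. At 20 weeks Tagln had 1.62, 4.74 and 5.25 CPM in the CD mice and 4.25, 12.9 and 21.1 CPM in the HFD mice. At 34 weeks Tagln had 1.78, 6 and 19.8 CPM in the CD mice and 1.97, 5.9 and 7.28 CPM in the HFD mice. The diets overlapped at each time, although 5 of 6 HFD mice exceeded every CD mouse at 20 weeks. The diet difference was 0.52 (adjusted p = 0.322) at 8 weeks, 1.34 ± 0.42 (adjusted p = 0.0073) at 20 weeks and -0.17 (adjusted p = 0.749) at 34 weeks. From 8 to 34 weeks of HFD Tagln fell by 1.13 (adjusted p = 0.0241).

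Myl9, the regulatory light chain (chr2:156775408-156781657), had values of 1.85, 2.94 and 9.94 CPM in the CD mice and 1.67, 4.53 and 6.52 CPM in the HFD mice at 8 weeks. At 20 weeks Myl9 had 0.883, 2.58 and 4.84 CPM in the CD mice and 3.97, 8.14 and 11.4 CPM in the HFD mice. At 34 weeks Myl9 had 1.78, 3.37 and 6.15 CPM in the CD mice and 4.16, 5.7 and 11.9 CPM in the HFD mice. For Myl9, 0, 5 and 3 of the 6 HFD mice lay above the highest CD mouse at 8, 20 and 34 weeks. The diet difference was 0.16 (adjusted p = 0.68), 1.34 ± 0.31 (adjusted p = 0.000396) and 0.64 (adjusted p = 0.0677). The call at 34 weeks was reached without CD mouse 3 or 7, without HFD mouse 6, or without CD mouse 3 of the 8 week group, with an adjusted p as low as 0.0436.

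Cnn1, calponin 1 (chr9:22099221-22109221), was close to absent, and its values rest on single reads. It had 21 reads over the 6 CD mice and 46 reads over the 6 HFD mice at 8 weeks, of which 32 were in HFD mouse 1 (2.14 CPM). At 20 weeks there were 20 reads in the CD and 14 in the HFD mice, and at 34 weeks 5 reads in the 8 CD mice and 0 in the 6 HFD mice. A count of 0 allows up to 3 reads, or 0.244 to 0.28 CPM in these 6 mice, which covers counting error only, so that Cnn1 could not be compared between diets at this depth.

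**Figure D2:**
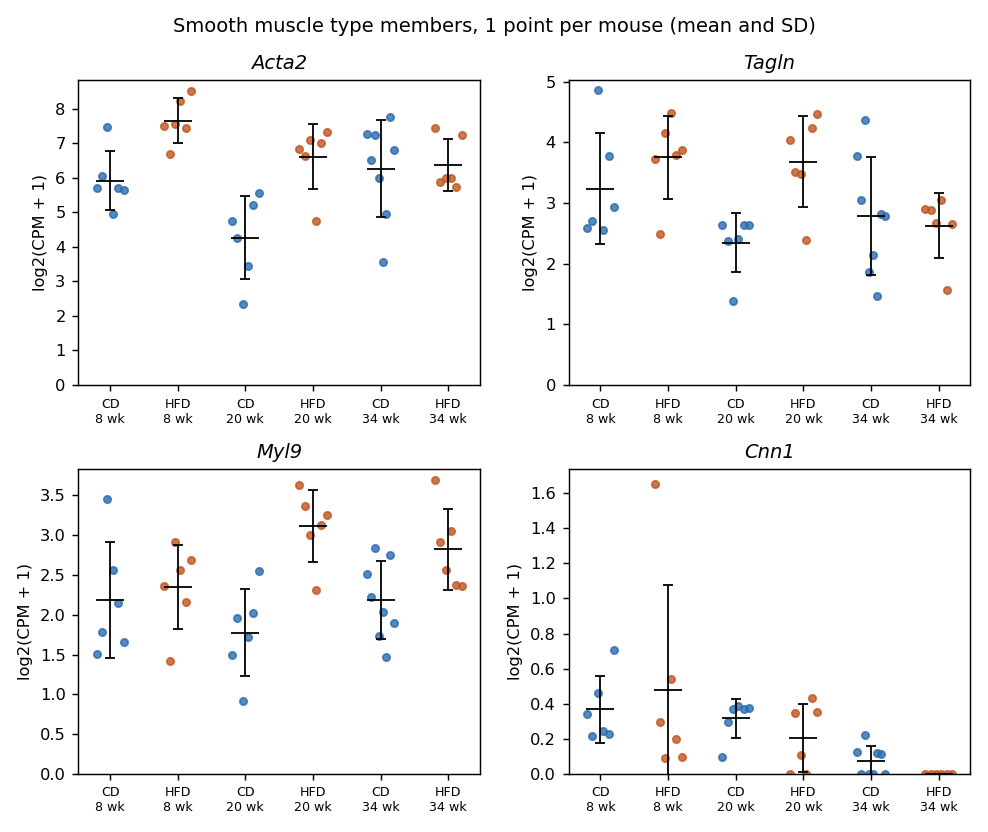
Levels of Acta2, Tagln, Myl9 and Cnn1 in each mouse as log2(CPM + 1), by diet and weeks on the diet, with blue for CD, orange for HFD and the mean and SD in black. At 20 weeks 5 of 6 HFD mice stand above every CD mouse for Acta2, Tagln and Myl9, and Cnn1 stays near 0 with the exception of 1 HFD mouse at 8 weeks.

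The smooth muscle type and the general genes were set side by side. The median diet difference of the 3 smooth muscle type genes tested was 0.52, 1.34 and 0.11 at 8, 20 and 34 weeks, and that of the 34 general genes was 0.59, 1.12 and 0.69. At 34 weeks 0 of 3 smooth muscle type and 22 of 34 general genes were called higher, a difference between the classes that was not tested. Of the 3, Myl9 differed by 0.64 at 34 weeks (limma, adjusted p = 0.0677), near the general median. Tagln and Myl9 had group medians of 3.37 to 6.00 CPM at that time, where the log2(CPM + 1) scale understates changes. The mean log2(CPM + 1) over the 4 smooth muscle type genes minus that over the 35 general genes had a median of -3.95 in CD and -3.73 in HFD mice at 8 weeks, -4.48 and -4.38 at 20 weeks, and -4.20 and -5.13 at 34 weeks. The ranges of the diets overlapped at all 3 times (-5.79 to -3.55 in CD and -5.49 to -4.07 in HFD mice at 34 weeks). Mice of 1 group also varied more for the smooth muscle type genes, with a median within-group SD of 0.57 on the log2 scale compared with 0.32 for the general genes. These medians include Cnn1 and Tpm2, which were not tested. Most smooth muscle type genes were low, and the part of their level in this spread was not tested. Myh11, the smooth muscle myosin heavy chain and no member, had diet differences of 1.21 (adjusted p = 0.00222), 0.78 (adjusted p = 0.0316) and 0.10 (adjusted p = 0.796), with group medians between 1.74 and 6.96 CPM.

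Among general genes the monomer binding proteins were higher at each time. Tmsb4x (thymosin beta 4, which sequesters actin monomers) had values of 55, 99.1 and 228 CPM in the CD mice and 226, 555 and 927 CPM in the HFD mice at 8 weeks. At 20 weeks Tmsb4x had 61.7, 136 and 408 CPM in the CD mice and 759, 1257 and 1729 CPM in the HFD mice. At 34 weeks Tmsb4x had 188, 718 and 2446 CPM in the CD mice and 1311, 1957 and 3600 CPM in the HFD mice. For Tmsb4x, 5, 6 and 2 of the 6 HFD mice lay above the highest CD mouse at 8, 20 and 34 weeks. The diet difference was 2.19 (adjusted p = 0.000657), 3.04 (adjusted p = 4.23e-06) and 1.55 (adjusted p = 0.00695). Its close relative Tmsb10 had values of 9.05, 15.1 and 17.4 CPM in the CD mice and 26.1, 48.2 and 71.5 CPM in the HFD mice at 8 weeks. At 20 weeks Tmsb10 had 6.33, 11.8 and 33 CPM in the CD mice and 88.9, 122 and 147 CPM in the HFD mice. At 34 weeks Tmsb10 had 20.2, 74.7 and 147 CPM in the CD mice and 136, 182 and 220.4 CPM in the HFD mice. For Tmsb10, 6, 6 and 4 of the 6 HFD mice lay above the highest CD mouse at 8, 20 and 34 weeks. The diet difference was 1.61 (adjusted p = 0.000673), 3.04 (adjusted p = 6.47e-08) and 1.57 (adjusted p = 0.000539). Tmsb4x and Tmsb10 have many processed copies in the genome, and how the authors' counting treated reads that match several places is not given in the sources used here. The other monomer and turnover genes Pfn1 (profilin), Cfl1 (cofilin) and Cap1 were higher at each time, with differences of 0.72, 1.39 and 0.71 for Pfn1, 0.50, 1.11 and 0.65 for Cfl1, and 0.59, 1.42 and 1.12 for Cap1.

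Capg, which caps filament ends and is abundant in macrophages, had the widest diet difference of all members. It had values of 7.34, 12.3 and 30.6 CPM in the CD mice and 25.9, 71.3 and 174 CPM in the HFD mice at 8 weeks. At 20 weeks Capg had 6.99, 16.6 and 116 CPM in the CD mice and 207, 396 and 513 CPM in the HFD mice. At 34 weeks Capg had 27, 123 and 338 CPM in the CD mice and 241, 566 and 896 CPM in the HFD mice. For Capg, 5, 6 and 5 of the 6 HFD mice lay above the highest CD mouse at 8, 20 and 34 weeks. The difference was 2.28 (adjusted p = 0.00115), 4.12 (adjusted p = 2.44e-07) and 2.23 (adjusted p = 0.000824). Arpc1b and Arpc2, subunits of the Arp2/3 complex, were higher by 0.68, 1.13 and 0.74 and by 0.67, 1.38 and 1.03 at the 3 times.

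Tagln2, the transgelin found outside smooth muscle, had values of 27.2, 38.5 and 74.9 CPM in the CD mice and 62.9, 119.5 and 181 CPM in the HFD mice at 8 weeks. At 20 weeks Tagln2 had 28.2, 55.8 and 139.7 CPM in the CD mice and 237, 364 and 460.4 CPM in the HFD mice. At 34 weeks Tagln2 had 30.6, 101 and 295 CPM in the CD mice and 214, 433 and 588 CPM in the HFD mice. For Tagln2, 4, 6 and 4 of the 6 HFD mice lay above the highest CD mouse at 8, 20 and 34 weeks. Its difference was 1.43 (adjusted p = 0.00426), 2.54 (adjusted p = 2.63e-06) and 1.91 (adjusted p = 0.000211). Tagln2 was called at 34 weeks where Tagln was not, and these genes were not tested against each other. Actn1, an alpha-actinin that links filaments, had values of 23.7, 30.8 and 42.6 CPM in the CD mice and 51.7, 73.7 and 112 CPM in the HFD mice at 8 weeks. At 20 weeks Actn1 had 20.0, 28.1 and 69.9 CPM in the CD mice and 104, 181 and 211 CPM in the HFD mice. At 34 weeks Actn1 had 24, 51.5 and 110.0 CPM in the CD mice and 106, 166 and 227 CPM in the HFD mice. For Actn1, 6, 6 and 4 of the 6 HFD mice lay above the highest CD mouse at 8, 20 and 34 weeks. The difference was 1.22 (adjusted p = 0.00171), 2.39 (adjusted p = 1.67e-07) and 1.55 (adjusted p = 0.000115). Its paralog Actn4 did not pass the test, with values of 583, 633 and 707 CPM in the CD mice and 548, 616 and 704 CPM in the HFD mice at 8 weeks. At 20 weeks Actn4 had 444, 521 and 602 CPM in the CD mice and 588, 603 and 632 CPM in the HFD mice. At 34 weeks Actn4 had 369, 447 and 683 CPM in the CD mice and 458, 531 and 585 CPM in the HFD mice. For Actn4, 0, 4 and 0 of the 6 HFD mice lay above the highest CD mouse at 8, 20 and 34 weeks. The difference of Actn4 was -0.03 (adjusted p = 0.834), 0.22 (adjusted p = 0.0652) and 0.19 (adjusted p = 0.112). It reached the threshold at 20 weeks without CD mouse 6 or without CD mouse 7 of the 34 week group (adjusted p down to 0.0274), and at 34 weeks without CD mouse 7 (adjusted p = 0.00939).

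The nonmuscle actins passed the test at 20 and 34 weeks. Actb, a common reference gene, had values of 1086, 1489 and 1981 CPM in the CD mice and 1484, 1632 and 2065 CPM in the HFD mice at 8 weeks. At 20 weeks Actb had 841, 1513 and 1722 CPM in the CD mice and 1941, 2048 and 2221 CPM in the HFD mice. At 34 weeks Actb had 1197, 1967 and 2987 CPM in the CD mice and 2035, 2516 and 3696 CPM in the HFD mice. For Actb, 1, 6 and 1 of the 6 HFD mice lay above the highest CD mouse at 8, 20 and 34 weeks. Its difference was 0.15 (adjusted p = 0.519), 0.59 (adjusted p = 0.00597) and 0.43 (adjusted p = 0.0394). With TMM factors the difference was 0.37 (adjusted p = 0.0612) at 20 weeks and 0.34 (adjusted p = 0.0869) at 34 weeks, and the call at 34 weeks was also lost without any 1 of 7 mice of that time (adjusted p up to 0.134). Actg1, cytoplasmic gamma-actin, had values of 385, 543 and 659 CPM in the CD mice and 495, 543 and 688 CPM in the HFD mice at 8 weeks. At 20 weeks Actg1 had 347, 563 and 659 CPM in the CD mice and 608, 751 and 864 CPM in the HFD mice. At 34 weeks Actg1 had 332, 551 and 817 CPM in the CD mice and 597, 872 and 1045 CPM in the HFD mice. For Actg1, 1, 5 and 4 of the 6 HFD mice lay above the highest CD mouse at 8, 20 and 34 weeks. Its difference was 0.09 (adjusted p = 0.685), 0.54 (adjusted p = 0.00787, and 0.0854 with TMM factors) and 0.57 (adjusted p = 0.00477). The actin genes resemble each other in their coding sequence, so that some reads may be split between them. Within a mouse, log2 Acta2 minus log2 Actb had a median of -4.88 in CD and -3.06 in HFD mice at 8 weeks, -6.13 and -4.14 at 20 weeks, and -4.26 and -5.36 at 34 weeks, given as a description with no test.

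**Figure D3:**
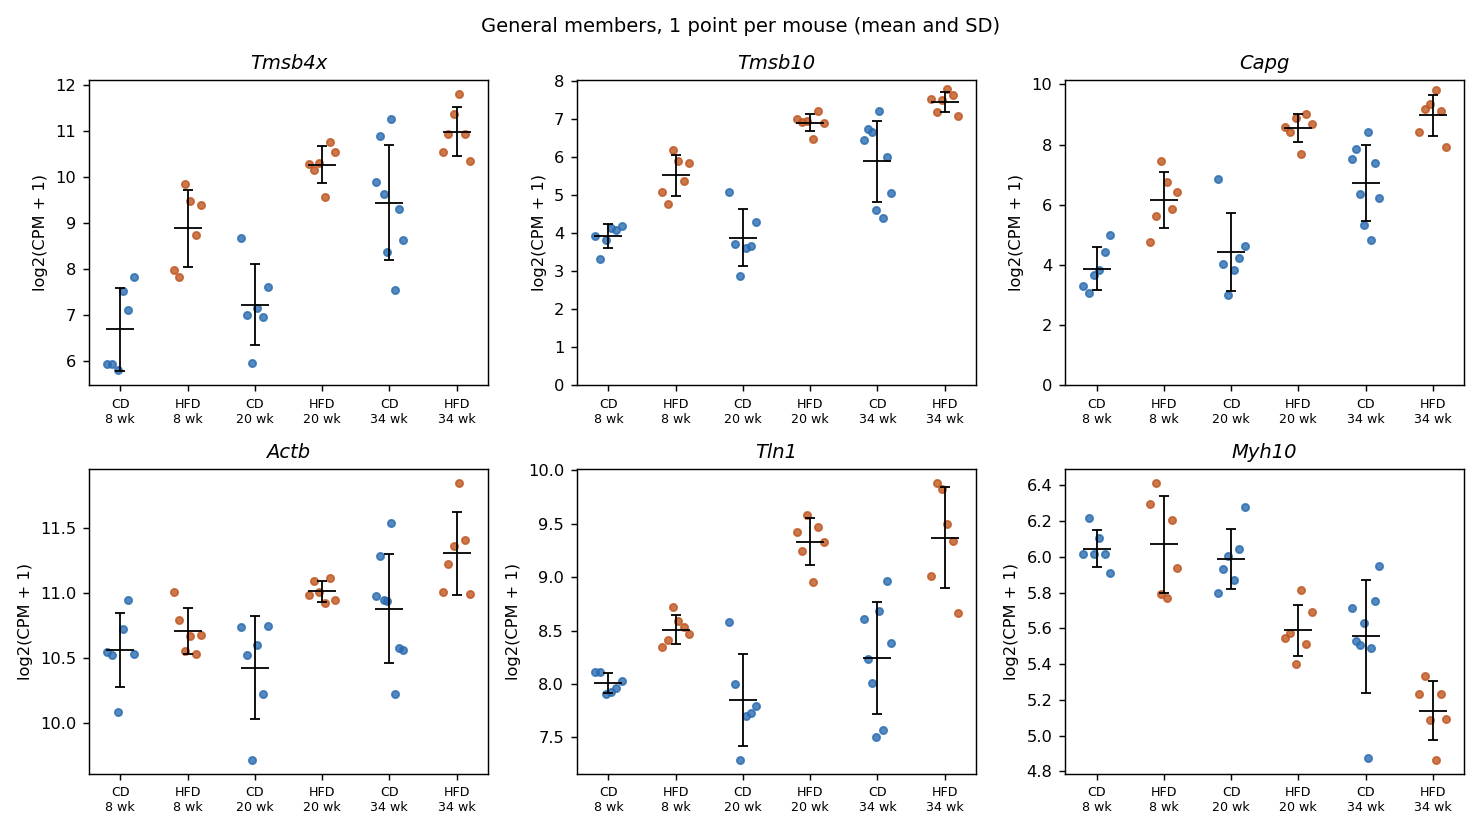
Levels of 6 general members in each mouse as log2(CPM + 1), by diet and weeks on the diet, with blue for CD, orange for HFD and the mean and SD in black. Tmsb10 and Tln1 separate the diets at 8 and 20 weeks, the CD mice spread widely at 34 weeks, and Myh10 is lower in the HFD mice at 20 and 34 weeks; the vertical axes differ and only those of Tmsb10 and Capg start at 0.

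A few members were lower or nearly level. Myh10, the heavy chain of nonmuscle myosin IIB, had values of 59, 63.7 and 73.4 CPM in the CD mice and 53.6, 66.5 and 84.2 CPM in the HFD mice at 8 weeks. At 20 weeks Myh10 had 54.5, 61.7 and 76.7 CPM in the CD mice and 41.2, 46.2 and 55.2 CPM in the HFD mice. At 34 weeks Myh10 had 28.3, 46.9 and 60.7 CPM in the CD mice and 28.1, 34.9 and 39.3 CPM in the HFD mice. For Myh10, 2, 5 and 1 of the 6 HFD mice lay below the lowest CD mouse at 8, 20 and 34 weeks. Its difference was 0.02 (adjusted p = 0.892), -0.40 (adjusted p = 0.00678) and -0.41 (adjusted p = 0.00481). Myh9, the heavy chain of myosin IIA, went the other way with differences of 0.23 (adjusted p = 0.4), 1.20 (adjusted p = 2.25e-05) and 0.98 (adjusted p = 0.000405). Rdx (radixin), which ties filaments to the membrane, had values of 132, 146 and 157 CPM in the CD mice and 128, 146 and 158 CPM in the HFD mice at 8 weeks. At 20 weeks Rdx had 154, 171 and 199 CPM in the CD mice and 121, 129.8 and 145 CPM in the HFD mice. At 34 weeks Rdx had 87.1, 108 and 123 CPM in the CD mice and 91.2, 98.3 and 106 CPM in the HFD mice. For Rdx, 1, 6 and 0 of the 6 HFD mice lay below the lowest CD mouse at 8, 20 and 34 weeks. Its difference was 0.00 (adjusted p = 0.98), -0.37 (adjusted p = 0.00011) and -0.11 (adjusted p = 0.202). The other proteins of this family, Ezr (ezrin) and Msn (moesin), were higher at 20 weeks by 1.65 (adjusted p = 0.000134) and 0.96 (adjusted p = 9.86e-06).

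Vcl (vinculin), a core adhesion protein whose promoter with its CArG box is printed above, was not called at any time. It had values of 279, 369 and 481 CPM in the CD mice and 229.7, 283 and 401 CPM in the HFD mice at 8 weeks. At 20 weeks Vcl had 242, 337 and 407 CPM in the CD mice and 315, 350.0 and 396 CPM in the HFD mice. At 34 weeks Vcl had 142, 194 and 325 CPM in the CD mice and 131, 209 and 247 CPM in the HFD mice. For Vcl, 3, 0 and 1 of the 6 HFD mice lay below the lowest CD mouse at 8, 20 and 34 weeks. The difference was -0.33 (adjusted p = 0.134), 0.09 (adjusted p = 0.69, 95% interval -0.28 to 0.46) and -0.01 (adjusted p = 0.953), and at 8 weeks it was -0.44 (adjusted p = 0.0449) with TMM factors. Ilk, integrin-linked kinase, had values of 125, 148 and 160.5 CPM in the CD mice and 163, 174 and 193 CPM in the HFD mice at 8 weeks. At 20 weeks Ilk had 140.1, 146 and 172 CPM in the CD mice and 174, 179 and 189 CPM in the HFD mice. At 34 weeks Ilk had 128, 166 and 189.9 CPM in the CD mice and 156, 178 and 193 CPM in the HFD mice. For Ilk, 6, 6 and 1 of the 6 HFD mice lay above the highest CD mouse at 8, 20 and 34 weeks. The difference of Ilk was 0.27 (adjusted p = 0.0113) and 0.25 (adjusted p = 0.0128) at 8 and 20 weeks and 0.14 (adjusted p = 0.168) at 34 weeks. With TMM factors it was 0.16 (adjusted p = 0.0752) and 0.04 (adjusted p = 0.695) at 8 and 20 weeks.

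Of the other adhesion genes, Tln1 (talin), which activates integrins, had values of 239, 254 and 276 CPM in the CD mice and 324, 361 and 420.5 CPM in the HFD mice at 8 weeks. At 20 weeks Tln1 had 155, 216 and 382 CPM in the CD mice and 496, 664 and 763 CPM in the HFD mice. At 34 weeks Tln1 had 180.2, 316 and 498 CPM in the CD mice and 404, 684 and 943 CPM in the HFD mice. For Tln1, 6, 6 and 5 of the 6 HFD mice lay above the highest CD mouse at 8, 20 and 34 weeks. Its difference was 0.50 (adjusted p = 0.0467), 1.48 (adjusted p = 5.83e-07) and 1.13 (adjusted p = 6.62e-05), and the call at 8 weeks was lost without any 1 of 20 mice (adjusted p up to 0.0974). Pxn (paxillin), a scaffold of adhesions, had values of 58, 64.4 and 85.2 CPM in the CD mice and 43.2, 56.4 and 65.7 CPM in the HFD mice at 8 weeks. At 20 weeks Pxn had 70.8, 79.6 and 89.9 CPM in the CD mice and 95.3, 133 and 172 CPM in the HFD mice. At 34 weeks Pxn had 23.4, 51.6 and 117 CPM in the CD mice and 58.2, 107 and 154 CPM in the HFD mice. For Pxn, 0, 6 and 3 of the 6 HFD mice lay above the highest CD mouse at 8, 20 and 34 weeks. Its difference was -0.27 (adjusted p = 0.386), 0.66 (adjusted p = 0.0225) and 0.93 (adjusted p = 0.00192), and the call at 20 weeks was lost without HFD mouse 5 (adjusted p = 0.0612). Zyx (zyxin) and Lasp1, both LIM domain proteins of adhesions and filaments, were called at 20 and 34 weeks. Zyx differed by -0.01 (adjusted p = 0.978), 0.90 (adjusted p = 0.00271) and 0.65 (adjusted p = 0.0252) at 8, 20 and 34 weeks, and its call at 34 weeks was lost without any 1 of 4 mice of that time (adjusted p up to 0.0756). Lasp1 differed by 0.25 (adjusted p = 0.167), 1.08 (adjusted p = 6.07e-07) and 0.60 (adjusted p = 0.00122). Parva (alpha-parvin) differed by 0.63 (adjusted p = 0.00214), 0.39 (adjusted p = 0.0341) and -0.08 (adjusted p = 0.664), and its call at 20 weeks was lost without any 1 of 6 mice of that time (adjusted p up to 0.0775).

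The remaining general members were described by their differences. Of the tropomyosins, Tpm1 differed by 1.35, 2.06 and 1.03 at 8, 20 and 34 weeks, Tpm3 by 0.59, 1.14 and 0.93, and Tpm4 by 0.83, 0.75 and 0.39, of which the last did not pass the test (adjusted p = 0.0784). Tpm2, which was not tested, had means of 0.91 ± 0.415 and 2.02 ± 1.10 CPM (SD) in CD and HFD mice at 8 weeks, 1.03 ± 0.451 and 3.90 ± 0.889 CPM at 20 weeks and 2.09 ± 1.20 and 3.73 ± 1.63 CPM at 34 weeks. Flna (filamin A) differed by 0.90, 2.15 and 1.30, Cnn2 by 0.82, 1.89 and 0.67, and Cnn3 by 1.25, 1.10 and 0.76, where Cnn2 and Cnn3 missed the threshold at 34 weeks (adjusted p = 0.0694 and 0.0578). The calls at 8 weeks were lost without any 1 of 6 mice for Cnn2 (adjusted p up to 0.0784), 2 mice for Flna (up to 0.0548) and 2 mice for Tpm3 (up to 0.0651). At 34 weeks the threshold was reached without any 1 of 3 mice for Cnn2, 6 mice for Cnn3 and 3 mice for Tpm4. Vasp, which promotes filament growth, had values of 24.1, 29.3 and 30.6 CPM in the CD mice and 31.4, 56.6 and 67.8 CPM in the HFD mice at 8 weeks. At 20 weeks Vasp had 15.4, 27 and 61.2 CPM in the CD mice and 73.1, 99.8 and 111 CPM in the HFD mice. At 34 weeks Vasp had 30.0, 57 and 114 CPM in the CD mice and 61.7, 75.6 and 90.6 CPM in the HFD mice. For Vasp, 6, 6 and 0 of the 6 HFD mice lay above the highest CD mouse at 8, 20 and 34 weeks. Its difference was 0.88 (adjusted p = 0.00364), 1.69 (adjusted p = 6.56e-07) and 0.41 (adjusted p = 0.131), of which the last reached the threshold without CD mouse 5 (adjusted p = 0.0264). The essential light chain Myl6 had values of 369.8, 413 and 470.2 CPM in the CD mice and 529.8, 606 and 707 CPM in the HFD mice at 8 weeks. At 20 weeks Myl6 had 389, 429 and 462 CPM in the CD mice and 486, 537 and 602 CPM in the HFD mice. At 34 weeks Myl6 had 564, 712 and 1003 CPM in the CD mice and 530.0, 678 and 775 CPM in the HFD mice. For Myl6, 6, 6 and 0 of the 6 HFD mice lay above the highest CD mouse at 8, 20 and 34 weeks. Its difference was 0.56 (adjusted p = 0.000277), 0.31 (adjusted p = 0.0212) and -0.16 (adjusted p = 0.24), with the call at 20 weeks lost with TMM factors (0.10, adjusted p = 0.528) and without HFD mouse 5 (adjusted p = 0.054). The light chain Myl12a differed by 0.47, 0.54 and 0.13.

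Time on each diet was compared next. All mice started at 6 weeks of age, so weeks on a diet and age cannot be told apart. Read depth also differed without overlap between CD mice at 8 and 20 weeks and between HFD mice at 8 and 34 weeks. It did so between 20 and 34 weeks in both diets as well, and the part of depth was not tested. In CD mice 1 of 37 members changed from 8 to 20 weeks (Lasp1, which fell by 0.63, adjusted p = 0.0123), where 3.58% of all genes were called and 1.7% were higher. From 8 to 34 weeks of CD 19 members changed, 15 higher and 4 lower, where 64.7% of genes were called and 40.1% were higher. The 15 included Capg (2.86), Tmsb4x (2.75) and Tmsb10 (1.98), and the 4 lower were Vcl (-0.87), Myh10 (-0.49), Rdx (-0.45) and Actn4 (-0.43), and none of the 3 smooth muscle type genes was called. In HFD mice 21 members changed from 8 to 20 weeks, 19 higher and 2 lower, Myh10 (-0.48) and Parva (-0.44), where 36.5% of genes were called and 21.2% were higher. From 8 to 34 weeks of HFD 25 members changed, 19 higher and 6 lower (52.5% of genes called, 31.7% higher). The 6 lower at 34 weeks were Tagln, Myh10, Parva, Rdx, Vcl and Tpm4. From 8 to 34 weeks of CD 51.4% of the members were called and 40.5% were higher, and with TMM factors 40.5% of the members and 31.6% of all genes were higher.

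The change of the diet difference between times was tested next, and its counts depended on the fit. Between 20 and 8 weeks 4 of 37 members were called (10.8%, compared with 4.49% of all genes, 2.81% higher). There was a wider difference at 20 weeks for Tln1 (0.98, adjusted p = 0.0459), Msn (0.85, adjusted p = 0.0328) and Lasp1 (0.83, adjusted p = 0.0252) and a lower one for Rdx (-0.38, adjusted p = 0.0415). Msn had values of 275, 309 and 366 CPM in the CD mice and 275, 341 and 389 CPM in the HFD mice at 8 weeks. At 20 weeks Msn had 208, 278 and 402 CPM in the CD mice and 436, 548 and 626 CPM in the HFD mice. At 34 weeks Msn had 185, 313 and 403 CPM in the CD mice and 328, 491 and 637 CPM in the HFD mice. For Msn, 2, 6 and 4 of the 6 HFD mice lay above the highest CD mouse at 8, 20 and 34 weeks. Between 34 and 8 weeks 3 were called (8.11%, compared with 28.8% of all genes, 13% higher), namely Pxn (1.19, adjusted p = 0.00819), Myl6 (-0.72, adjusted p = 0.00102) and Parva (-0.71, adjusted p = 0.0141). Between 34 and 20 weeks 3 were called (8.11%, compared with 10.5% of all genes, 4.22% higher), namely Tmsb10 (-1.48, adjusted p = 0.0476), Vasp (-1.28, adjusted p = 0.0109) and Tpm1 (-1.03, adjusted p = 0.0342). A fit of only the groups compared gave 18, 3 and 1 calls for the 3 changes, DESeq2 gave 6, 8 and 7, and TMM factors gave 4, 6 and 4. Leaving out 1 mouse gave 0 (CD mouse 3 of 20 weeks) to 14 calls (CD mouse 1 of 20 weeks) between 20 and 8 weeks. Between 34 and 8 weeks it gave 3 to 9 calls (9 without CD mouse 5 of 34 weeks). Between 34 and 20 weeks it gave 1 (CD mouse 3 of 20 weeks, among others) to 9 calls (CD mouse 6 of 34 weeks).

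Single mice stood out for many members at once. In the 20 week CD group mouse 1 had the highest value of its group for 25 of 37 members and mouse 3 the lowest for 31, and in the 34 week CD group these were mouse 5 (22 members) and mouse 6 (28 members). In the HFD groups mouse 4 was lowest for 33 members at 20 weeks and mouse 6 for 20 members at 34 weeks. The macrophage marker sum moved with the same mice, with 3640 and 417 CPM in CD mice 1 and 3 at 20 weeks and 14410 and 1269 CPM in CD mice 5 and 6 at 34 weeks. HFD mouse 4 at 20 weeks had 5486 CPM and HFD mouse 6 at 34 weeks 6278 CPM. Each of these was the highest or the lowest sum of its group, and its part in the members' values was not tested. Without CD mouse 5 of 34 weeks 26 members were called at 34 weeks, and without CD mouse 6 21 were.

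**Figure D4:**
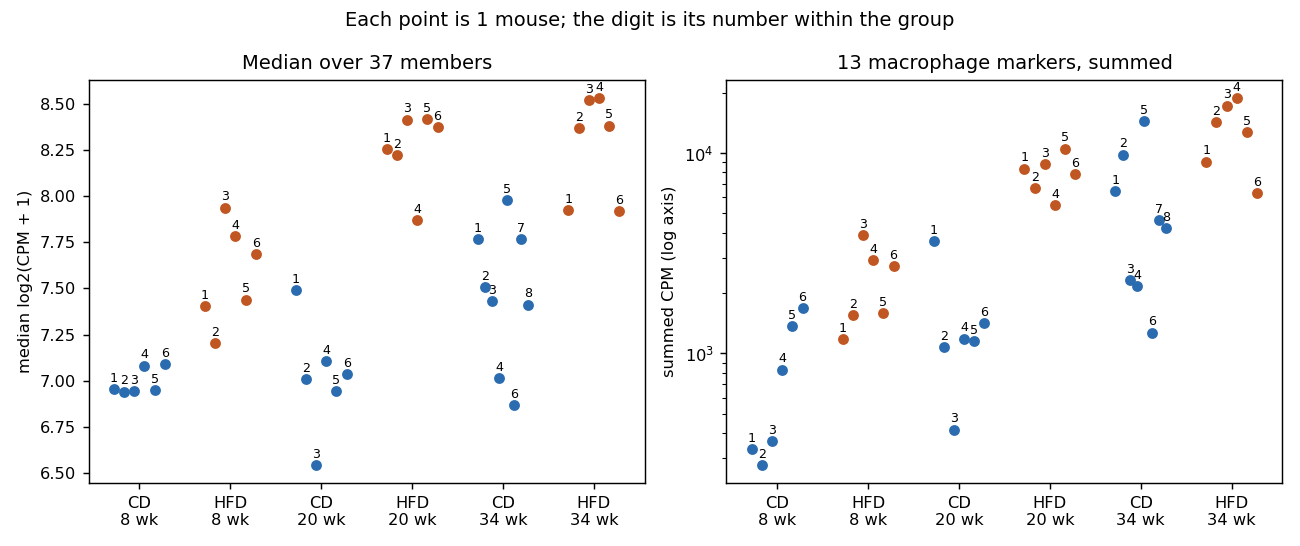
Left, median log2(CPM + 1) over the 37 tested members in each mouse; right, summed CPM of 13 macrophage markers in the same mice on a log axis, with the mouse number beside each point, blue for CD and orange for HFD. In each group the mouse that was highest for the most members also had the highest marker sum, for example CD mouse 5 at 34 weeks with 14410 CPM.

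With the mean of the macrophage markers as a covariate 7, 11 and 5 of 37 members were called at 8, 20 and 34 weeks, of which 1 at 8 weeks was lower. These are 18.9%, 29.7% and 13.5% of the members, compared with 33.4%, 17.2% and 7.36% of all genes called in the same fit. The median difference of the general genes was then 0.14, 0.42 and 0.20. Acta2 differed by 1.73 (adjusted p = 0.0419) and 2.33 (adjusted p = 0.0369) at 8 and 20 weeks, close to its values without the covariate. Some general genes also stayed close at 8 weeks, such as Parva (0.75, adjusted p = 0.002), Myl6 (0.59, adjusted p = 0.00136) and Myl12a (0.45, adjusted p = 0.0248). At that time 17 members lost their call with the same sign and 1 with the sign reversed. Myh10 and Rdx, called lower without the covariate, also lost these calls in this limma fit. Myh10 differed by -0.08 (adjusted p = 0.753) at 20 weeks and -0.22 (adjusted p = 0.294) at 34 weeks. Rdx differed by -0.25 (adjusted p = 0.0826) at 20 weeks. Tagln and Myl9 at 20 weeks differed by 0.71 (adjusted p = 0.398) and 0.99 (adjusted p = 0.0922). With the mean of the mural markers as a covariate 4, 25 and 11 members were called (10.8%, 67.6% and 29.7%, compared with 23.3%, 41% and 17.5% of all genes). This mean covers all 12 mural markers, of which only 7 passed the filter. It includes Myh11, Lmod1 and Myocd, which also stand in the contractile list below, so smooth muscle genes are partly adjusted for smooth muscle genes. Acta2 then differed by 1.31 (adjusted p = 0.136) at 8 weeks and 1.97 (adjusted p = 0.0129) at 20 weeks. Tagln differed by 0.89 (adjusted p = 0.112) and Myl9 by 0.97 (adjusted p = 0.0156) at 20 weeks with this covariate. Marker levels differ between the diets themselves, so these fits also remove diet differences that go along with the markers.

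Genes of the same pathways outside the members were counted from 4 lists. Of 21 nucleators and branching factors 18 were tested, and 10 were higher and 1 lower in HFD mice at 8 weeks, 13 and 2 at 20 weeks and 11 and 4 at 34 weeks (61.1%, 83.3% and 83.3% called). At 20 weeks the highest was Was (2.75, adjusted p = 2.68e-06), an activator of the Arp2/3 complex in blood cells, and the lowest Wasl (-0.48, adjusted p = 0.0136), its widely expressed relative. Of 25 capping, severing and turnover genes 24 were tested, with 12 higher and 2 lower, 14 and 4, and 12 and 2 at the 3 times (58.3%, 75% and 58.3% called). The extremes at 20 weeks were Lcp1 (3.62, adjusted p = 1.17e-06), the leukocyte plastin, and Ssh1 (-1.03, adjusted p = 0.000115), a cofilin phosphatase. Of 22 contractile genes 15 were tested, with 6 higher and 0 lower, 9 and 1, and 6 and 1. These calls are 40%, 66.7% and 46.7% of the contractile genes, where 44.9%, 57% and 43.2% of all genes were called. Synpo2 (2.14, adjusted p = 1.36e-06) was the highest and Myh14 (-0.57, adjusted p = 0.0222), the heavy chain of myosin IIC, the lowest at 20 weeks. Srf, serum response factor, was not called (-0.24, 0.10 and -0.30 at the 3 times, adjusted p = 0.186, 0.572 and 0.0885). Mrtfa and Mrtfb were looked up but matched no gene among the deposited values, so they could not be analysed. Of 29 adhesion genes 26 were tested, with 11 higher and 1 lower, 17 and 1, and 12 and 3 (46.2%, 69.2% and 57.7% called). At 20 weeks they lay between Evl (3.84, adjusted p = 5.9e-07), a relative of Vasp, and Fermt2 (-0.45, adjusted p = 0.0359), a kindlin. The median diet difference at 20 weeks was 0.89, 0.72, 0.34 and 0.68 in the 4 lists, compared with 1.14 in the members and 0.14 in all genes.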

How the data were processed

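Gene expression was measured by RNA-seq in floating adipocytes of 38 mice. The deposited CPM values had been made by the authors, who aligned reads with STAR to mm10 (GRCm38), counted them over the exons of GENCODE genes with featureCounts of Subread 1.5.1, and merged 3 technical replicates per mouse (114 labelled samples). The submitters' processing notes list STAR 2.5 and 2.5.2b. TMM scaling is named in the methods, but the deposited CPM columns all have the same total, as values without TMM do. The strand setting of the counting and the treatment of reads matching several places are not given in the sources used here.

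Each deposited value was a whole number of reads (100% within 0.1 read), where 1 read was worth 0.0646 to 0.108 CPM. Reads on genes were 9275711 to 15480388 per mouse (median 12522298.5). This depth and the number of mice limit the precision. Columns were matched to diet, weeks and mouse by name, and mouse numbers only name the mice. Mice of a group were taken as biological replicates.

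Differences were fitted with limma 3.58.1 (R 4.3.3) on log2(CPM + 1) with a trended variance for genes with a mean above 2 (10343 of 29132), with all 6 groups in 1 fit (32 residual degrees of freedom). Tests were two-sided with Benjamini-Hochberg adjustment over all 10343 genes and a threshold of 0.05. The procedure was tested on simulated data. Tables were handled in Python 3.11.15 with pandas 2.3.3 and numpy 2.4.6. Alternatives were TMM and median-of-ratios factors, edgeR 4.0.16 and DESeq2 1.42.0 on the recovered reads, a pseudocount of 0.5, no filter, only the groups compared, a 2-fold minimum, marker means as covariates, the mouse number as a block, and leaving out each mouse. Exon lengths for levels per kilobase came from a later GENCODE release of the same build. All 39 members were named. Lowest, median and highest values were given for the smooth muscle type genes, Actb, Actg1, Tmsb4x, Tmsb10, the 5 general members with the highest and the 5 with the lowest diet difference at 20 weeks, members called lower in HFD mice, and the 2 largest called changes of the diet difference per pair of times. Of each pathway list the highest and lowest called gene at 20 weeks and Srf were named. The members, gene lists and this rule were chosen with earlier results of these data known.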

Additional observations from a re-analysis of the deposited data

Results flagged for a closer look

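In groups of 6 or 8 mice, a mouse whose gap to its nearest neighbour took up most of the group's range was found for 14 of 234 pairs of member and group (5.98%). Chance gives about 1 in 20 for a single pair. The pairs are not independent, since the same mouse can stand apart for several members, so this share was not tested against chance. HFD mouse 4 at 20 weeks was the lowest of its group for 4 of them, with 25.7 CPM for Acta2 (next 96.9 CPM), 237 CPM for Tagln2 (next 359 CPM), 104 CPM for Actn1 (next 169 CPM) and 227 CPM for Lasp1 (next 298 CPM). Tagln was low in CD mouse 3 at 20 weeks (1.62 CPM, next 4.16 CPM) and in HFD mouse 5 at 34 weeks (1.97 CPM, next 5.3 CPM). Cnn1 was high in HFD mouse 1 at 8 weeks (2.14 CPM, next 0.452 CPM) and low in CD mouse 1 at 20 weeks (0.07 CPM, which is 1 read, next 0.227 CPM).

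HFD mouse 1 at 8 weeks was also high for Actg1 (688 CPM, next 555 CPM), and CD mouse 1 at 20 weeks for Cap1 (182 CPM, next 128 CPM). Low values were found for Tpm1 in CD mouse 5 at 8 weeks (13.8 CPM, next 18.8 CPM), for Tpm4 in HFD mouse 2 at 8 weeks (312 CPM, next 434 CPM), for Myh10 in CD mouse 5 at 34 weeks (28.3 CPM, next 43.9 CPM) and for Zyx in CD mouse 6 at 34 weeks (31.5 CPM, next 69.1 CPM).

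The diet difference itself changed between times for 10 members by limma's test of that change. These are 4, 3 and 3 of 37 members (10.8%, 8.11% and 8.11%) for 20 against 8, 34 against 8 and 34 against 20 weeks, compared with 4.49%, 28.8% and 10.5% of all genes, and leaving out 1 mouse moved the counts to 0 to 14, 3 to 9 and 1 to 9. From 8 to 20 weeks it rose by 0.98 for Tln1, 0.85 for Msn and 0.83 for Lasp1 and was lower for Rdx (-0.38). From 8 to 34 weeks it rose by 1.19 for Pxn and was lower for Myl6 (-0.72) and Parva (-0.71). From 20 to 34 weeks it was lower for Tmsb10 (-1.48), Vasp (-1.28) and Tpm1 (-1.03).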

How the results depend on the processing

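Counts of called members are given in the order diet at 8, 20 and 34 weeks, CD from 8 to 20 and 34 weeks, HFD from 8 to 20 and 34 weeks, and the change of the diet difference from 8 to 20, 8 to 34 and 20 to 34 weeks, where they were 24, 35, 23, 1, 19, 21, 25, 4, 3 and 3. Leaving out 1 mouse gave 20 to 24, 33 to 36, 21 to 26, 0 to 2, 18 to 21, 16 to 22, 23 to 28, 0 to 14, 3 to 9 and 1 to 9. A 2-fold minimum, which can only remove calls, left 9, 23, 11, 0, 7, 8, 11, 0, 1 and 3. With the macrophage marker mean as a covariate they were 7, 11, 5, 7, 14, 1, 4, 2, 11 and 3, and with the mural marker mean 4, 25, 11, 2, 21, 23, 28, 14, 7 and 5. For the other settings only counts that moved by over 1.5 times are given, and their cause was not tested. For CD from 8 to 20 weeks DESeq2 gave 4 and a fit of only the groups compared 0. For the change from 8 to 20 weeks no filter gave 2 and only the groups compared 18. For the change from 8 to 34 weeks TMM factors gave 6, median-of-ratios factors 5, edgeR 5 and DESeq2 8. For the change from 20 to 34 weeks edgeR and DESeq2 each gave 7, no filter 1 and only the groups compared 1. Values below 0 where the report has a positive call came with the macrophage covariate alone, for Actb (-0.03), Actg1 (-0.06) and Pxn (-0.29) at 20 weeks, Tmsb4x (-0.01) at 34 weeks and Tpm3 (-0.03) at 8 weeks. The replicate block by mouse number gave 2 calls for CD from 8 to 20 weeks and 6 for the change from 8 to 34 weeks, but same-numbered mice deviated together with correlations from -0.509 to 0.529, so the numbers do not pair the mice. Over all genes tested the calls of diet at 8, 20 and 34 weeks numbered 4648, 5894 and 4468, and edgeR on the recovered reads gave 4521, 6042 and 4478. They were 1191, 1863 and 1019 with the 2-fold minimum, 3451, 1777 and 761 with the macrophage covariate, 2406, 4242 and 1810 with the mural covariate, and 2457 at 34 weeks with only the groups compared. Low levels limit Cnn1 and Tpm2, which were not tested.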
